A study of Mus musculus with 4 samples.

Results

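The 10 heat shock proteins and cochaperones described here are Hspa1a, Hspa1b, Hspa8, Hsph1, Dnajb1, Dnaja1, Hsp90aa1, Hsp90ab1, Hspd1 and Hspe1. They were chosen by name, with earlier results of these data known. Each was found once among the 23284 gene symbols of the read count tables and in the deposited FPKM tables. RNA sequencing read their transcripts in Treg cells (regulatory T cells, which express FOXP3 and hold back immune responses). The cells were sorted into TriZol from C57BL/6 mice aged 12 to 13 months. The 4 libraries were 2KR eWAT, WT eWAT, 2KR spleen and WT spleen, 1 for each combination of tissue and genotype. The eWAT libraries came from epididymal white adipose tissue, a visceral fat depot, and the spleen libraries served as the control tissue. The 2KR mice carried PPARg-2KR, a mutant form of the nuclear receptor PPARG, and the WT mice were wild type. No treatment is given in the labels for any group, and whether a library came from 1 mouse or from pooled mice is not given in the sources used here.

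Heat shock proteins are chaperones, which hold, fold and refold other proteins. The transcription factor HSF1 switches on their genes when unfolded proteins build up, after heat and other stress, by binding heat shock elements made of inverted GAA units. J-domain proteins bring unfolded proteins to the HSP70 chaperones, nucleotide exchange factors such as HSP110 let HSP70 release them, and HSP90 completes the folding of receptors and kinases with its own set of cochaperones. In the mitochondrial matrix the chaperonin HSP60 and its lid HSP10 fold imported proteins. In a bulk library, fewer cells of a type and less RNA per cell cannot be told apart.

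The sequences upstream of 4 members are shown because Hspa1a with Hspa1b, and Hspd1 with Hspe1, are neighbouring genes whose levels are compared as pairs. Whether these sequences relate to the levels was not tested. They are taken from RefSeq on GRCm38.p6, whose promoter table held 7 of the 10 members. Capitals mark matches to heat shock element units. The first 2 sequences are the 250 bases upstream of each start site, Hspa1a at chr17:34972157-34972406 and Hspa1b at chr17:34959239-34959488, both on the minus strand, and they differ at 3 bases. The third is the 215-base stretch between the start sites of the divergent genes Hspd1 and Hspe1, chr1:55087933-55088147, shown on the plus strand, in which Hspe1 is read to the right and Hspd1 to the left.
Hspa1a: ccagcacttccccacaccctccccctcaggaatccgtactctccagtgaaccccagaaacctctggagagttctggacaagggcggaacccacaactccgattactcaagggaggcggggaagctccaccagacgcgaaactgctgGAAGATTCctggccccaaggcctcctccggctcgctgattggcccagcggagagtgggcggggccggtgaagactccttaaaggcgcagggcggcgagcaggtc
Hspa1b: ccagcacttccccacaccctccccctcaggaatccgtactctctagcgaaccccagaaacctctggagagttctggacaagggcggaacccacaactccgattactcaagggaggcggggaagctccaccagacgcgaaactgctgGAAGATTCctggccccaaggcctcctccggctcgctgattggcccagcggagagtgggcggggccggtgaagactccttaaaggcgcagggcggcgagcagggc
Hspd1 and Hspe1: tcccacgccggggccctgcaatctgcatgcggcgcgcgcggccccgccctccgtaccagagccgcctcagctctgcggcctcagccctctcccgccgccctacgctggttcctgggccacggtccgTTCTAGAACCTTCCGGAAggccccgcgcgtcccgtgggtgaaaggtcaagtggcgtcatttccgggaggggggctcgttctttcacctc

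Each promoter window, from 250 bases before to 50 after the start site, was searched on both strands for GAANNTTC, for TTCNNGAA and for a longer motif that overlaps them, GAANNTTC followed directly by NNGAA. GAANNTTC was found in 6 of the 7 members with a window (Hspa1a, Hspa1b, Dnaja1, Hsph1, Hspd1 and Hspe1) and in 9.04% of 27025 genes. TTCNNGAA was found in Hsph1, Hspd1 and Hspe1, and in 9.60% of genes. The longer motif was found in the same 3 members and in 0.662% of genes. Dnajb1 held none of the 3 motifs in this window. A 28-base stretch around the match is shown for 2 further members, Dnaja1 at chr4:40722334-40722361 on the plus strand and Hsph1 at chr5:149636280-149636307 on the minus strand, since Dnaja1 was the member higher in eWAT and Hsph1 had the widest contrast between genotypes.
Dnaja1: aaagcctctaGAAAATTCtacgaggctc
Hsph1: ctgcagaTTCTGGAAAGTTCtcctcagt

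Read counts summed to between 8315569 and 15993889 per library, and levels are given as CPM, reads scaled to a common library size after adjustment of the libraries with TMM (trimmed mean of M-values). A count of 3 reads, the limit that a count of 0 allows, equals 0.196 to 0.312 CPM, and every member was far above it, with at least 206 reads in each library. Foxp3, which defines Treg cells, stood at 803 CPM in 2KR eWAT, 1160 CPM in WT eWAT, 1297 CPM in 2KR spleen and 1407 CPM in WT spleen. The 6 Treg markers, Foxp3 among them, summed to 4593, 5921, 5011 and 5489 CPM in the same order. Ctla4, the most abundant of them, stood at 1877, 2419, 748 and 774 CPM. Of the 6, 1 passed as higher in eWAT and 2 as lower in the tissue test given below. Markers of other cells were also read in the eWAT libraries. In 2KR eWAT, WT eWAT, 2KR spleen and WT spleen, in that order, 9 macrophage and monocyte markers summed to 1676, 1333, 80.7 and 123 CPM. The 8 dendritic cell and antigen presentation markers summed to 16308, 9071, 688 and 1022 CPM, and the 8 fibroblast and mesothelium markers to 230.1, 545, 4.13 and 7.50 CPM. The 8 B cell markers summed to 197, 110, 84.6 and 99.9 CPM, the 8 endothelial markers to 221, 132, 193 and 175 CPM, and the 6 adipocyte markers to 20.1, 13.1, 1.44 and 2.82 CPM. Pecam1 made up most of the endothelial sum in spleen, with 112, 63.4, 190 and 172 CPM in the same order, and the other 7 endothelial markers rose in eWAT (median log2 fold change 4.38 over the 8). Adipoq had 0 reads in WT eWAT, Lum and Cfd had 0 reads in both spleen libraries, and Fcgr1 and Cldn5 had 0 reads in 2KR spleen. The part of these other cells in the chaperone levels was not tested.

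Per length of transcript, Hspa8, the constitutive HSP70 of the cytosol, was the most abundant member. Its FPKM (fragments scaled by transcript length and by sequencing depth, from the authors) averaged 1219 over the 4 libraries. Hsp90ab1, the constitutive HSP90, followed at 742 FPKM. Dnajb1 averaged 153 FPKM and Hsp90aa1 136 FPKM. The remaining 6 members lay between 33.8 FPKM for Hspa1a and 76.5 FPKM for Hspe1. Of the stress-inducible HSP70 genes, Hspa1a was thus the lowest member, and Hspa1b, at 56.5 FPKM, was above Hsph1, at 37.4 FPKM. The 2KR spleen library had the highest CPM of the 4 libraries for 8 of 10 members, against 24.2% of the 12307 genes that reached 5 CPM in any library. The exceptions were Dnaja1, highest in 2KR eWAT, and Hspe1, highest in WT spleen. Hspe1 was nearly level there, at 66.47 CPM in WT spleen and 66.40 CPM in 2KR spleen. In FPKM, WT eWAT was highest for Hspa8 and Hsp90ab1, and 2KR spleen was highest for Hspe1. The 2KR eWAT library had the lowest CPM for 5 members, against 40.8% of genes.

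**Figure D1:**
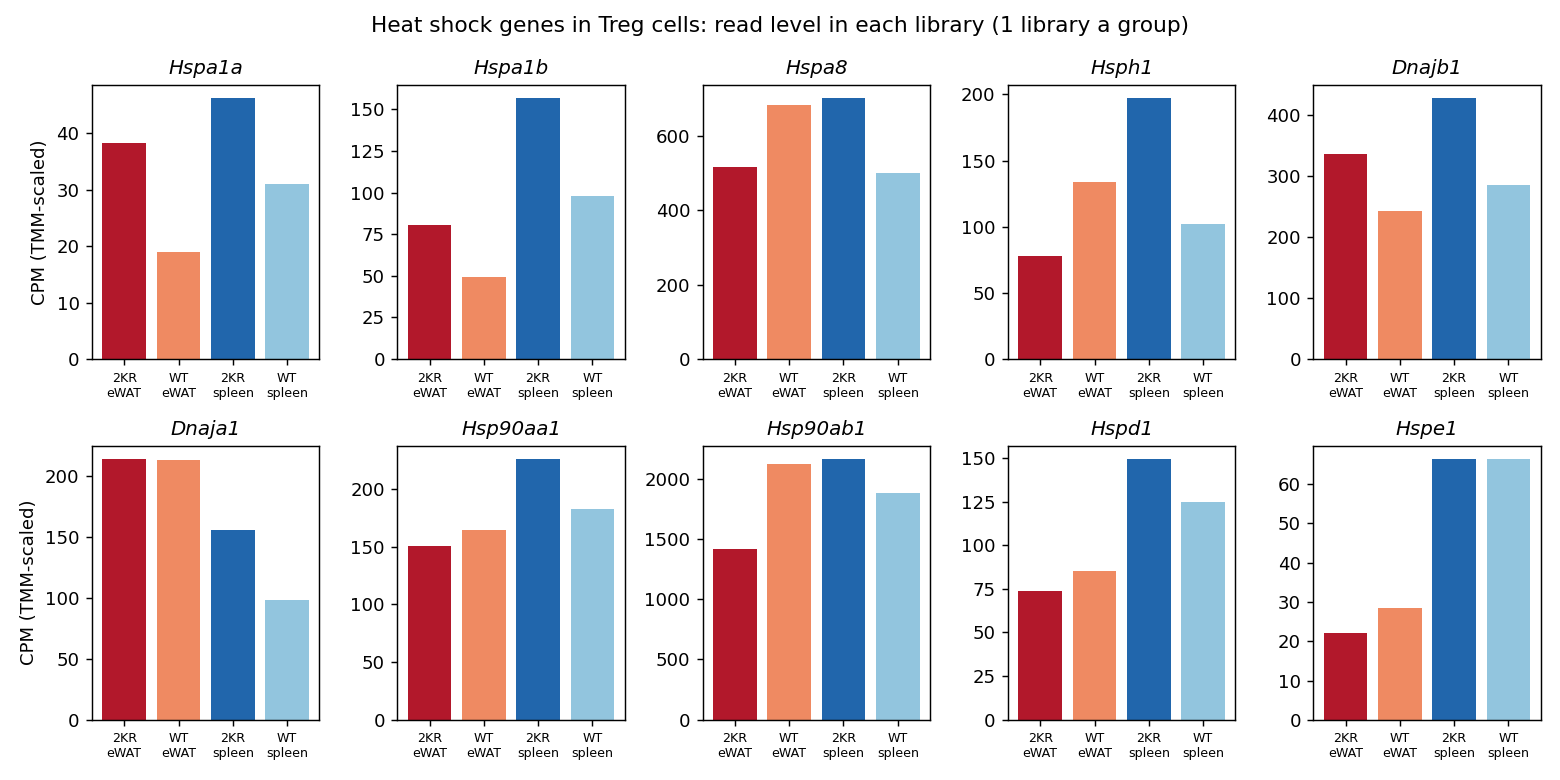
Level (TMM-scaled CPM, each axis from 0) of the 10 heat shock genes in the 2KR eWAT, WT eWAT, 2KR spleen and WT spleen libraries, 1 bar a library and no error bar because each group has 1 library. Hspa1a, Hspa1b and Dnajb1 stand higher in 2KR than in WT in both tissues, Hspe1 is lower in both eWAT libraries, and Dnaja1 is higher in both.

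Hspa1a and Hspa1b encode the same stress-inducible HSP70 protein from 2 intronless genes. They lie on mouse chromosome 17 at 35106304 to 35109101 and 35093374 to 35096183 in mm9, with 10120 bases between them. Hspa1a stood at 38.2 CPM in 2KR eWAT and 19.0 CPM in WT eWAT, and at 46.2 CPM in 2KR spleen and 31.1 CPM in WT spleen. Hspa1b stood at 80.3 CPM in 2KR eWAT and 49.6 CPM in WT eWAT, and at 157 CPM in 2KR spleen and 98.2 CPM in WT spleen. Both genes had their highest level in 2KR spleen and their lowest in WT eWAT, and both were higher in the 2KR library of each tissue. Between tissues, in CPM, Hspa1b did not overlap and Hspa1a did, because 2KR eWAT was above WT spleen. In FPKM, Hspa1b overlapped too, with 55.1 in 2KR eWAT and 54.4 in WT spleen. The reads of Hspa1b were 2.1 and 2.6 times those of Hspa1a in 2KR eWAT and WT eWAT, and 3.4 and 3.2 times in 2KR spleen and WT spleen. On the FPKM scale, which is set per length, the ratio lay between 1.5 in 2KR eWAT and 1.79 in 2KR spleen. The genes are near-identical copies, so how reads were shared between them is uncertain, and results for the 2 genes summed are given beside their own.

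Hspa8 (chromosome 9, 40609356 to 40613282 in mm9) stood at 517 CPM in 2KR eWAT and 684 CPM in WT eWAT, and at 702 CPM in 2KR spleen and 501 CPM in WT spleen. In CPM, the highest and lowest library were both from spleen, and the tissues overlapped. In FPKM the tissues also overlapped, but WT eWAT was highest, at 1368. It was followed by 1333 in 2KR spleen, 1250 in 2KR eWAT and 925 in WT spleen. In eWAT the 2KR library was the lower one, and in spleen the higher one.

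Hsph1 (chromosome 5, 150419420 to 150438890 in mm9) encodes HSP110, the nucleotide exchange factor of HSP70. It stood at 77.5 CPM in 2KR eWAT and 134 CPM in WT eWAT, and at 197 CPM in 2KR spleen and 102 CPM in WT spleen. The 2KR libraries were the lowest and the highest of the 4, and the WT libraries lay between them.

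The J-domain protein Dnajb1, HSP40, delivers unfolded proteins to HSP70 and is itself induced by heat. Dnajb1 (chromosome 8, 86132074 to 86135802 in mm9) stood at 336 CPM in 2KR eWAT and 242 CPM in WT eWAT, and at 428 CPM in 2KR spleen and 284 CPM in WT spleen. Its order over the libraries was that of Hspa1a, with WT eWAT lowest and 2KR eWAT above WT spleen. Dnaja1, another J-domain partner of HSP70 (chromosome 4, 40669501 to 40684184 in mm9), stood at 214 CPM in 2KR eWAT and 213 CPM in WT eWAT, and at 156 CPM in 2KR spleen and 98.3 CPM in WT spleen. Both eWAT libraries were above both spleen libraries, as for 31.9% of the 12307 genes at 5 CPM or more in a library. No other member had this pattern, and the 2 eWAT levels were nearly the same. The authors' files list 3 transcripts of Dnaja1, of 5481, 5575 and 5624 bases. The shortest held 70.3% and 73.7% of the gene's FPKM in 2KR eWAT and WT eWAT, and 75.8% and 64.4% in 2KR spleen and WT spleen.

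Hsp90aa1, the more inducible of the cytosolic HSP90 genes (chromosome 12, 111929246 to 111934605 in mm9), stood at 151 CPM in 2KR eWAT and 164 CPM in WT eWAT, and at 226 CPM in 2KR spleen and 183 CPM in WT spleen. In CPM, both eWAT libraries were below both spleen libraries. In FPKM they were not, with 139 in 2KR eWAT and 128 in WT eWAT against 155 in 2KR spleen and 123 in WT spleen. Hsp90ab1 (chromosome 17, 45704727 to 45710210 in mm9) stood at 1417 CPM in 2KR eWAT and 2118 CPM in WT eWAT, and at 2165 CPM in 2KR spleen and 1885 CPM in WT spleen. In CPM, 2KR eWAT stood apart at the low end and the other 3 libraries were close together. In FPKM, 2KR eWAT was also the lowest, at 659, but WT spleen was close to it, at 685. WT eWAT had 815 FPKM and 2KR spleen 807 FPKM. On the FPKM scale, Hsp90ab1 was 4.74 and 6.37 times Hsp90aa1 in 2KR eWAT and WT eWAT, and 5.22 and 5.55 times in 2KR spleen and WT spleen.

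Hspd1 and Hspe1 encode HSP60 and HSP10, the mitochondrial chaperonin and its lid, and start 215 bases apart on chromosome 1 in opposite directions. Hspd1 (55134678 to 55144776 in mm9) stood at 73.6 CPM in 2KR eWAT and 85.5 CPM in WT eWAT, and at 149 CPM in 2KR spleen and 125 CPM in WT spleen. Hspe1 (55144992 to 55148161 in mm9) stood at 22.1 CPM in 2KR eWAT and 28.5 CPM in WT eWAT, and at 66.4 CPM in 2KR spleen and 66.5 CPM in WT spleen. For both genes the 2 eWAT libraries were below the 2 spleen libraries, with 2KR eWAT lowest. The FPKM of Hspd1 was 1.18 and 1.08 times that of Hspe1 in 2KR eWAT and WT eWAT, against 0.824 and 0.677 times in 2KR spleen and WT spleen. The authors' FPKM intervals of the pair overlapped in both eWAT libraries and lay apart in both spleen libraries, where Hspe1 was the more abundant transcript.

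The first comparison set Treg cells of fat against those of spleen, with 2 libraries on each side. The mitochondrial pair Hspd1 and Hspe1 and the inducible HSP70 gene Hspa1b fell in eWAT, and Dnaja1 rose. Of the 10 members, 3 fell (23.2% of 16488 genes tested fell) and 1 rose (33.7% of genes rose), by edgeR's quasi-likelihood test with Benjamini-Hochberg adjustment over all genes and a threshold of 0.05. In all 4 of 10 passed, against 56.9% of genes. In CPM, both eWAT libraries were below both spleen libraries for 4 members. The share over the 12307 genes at 5 CPM or more in a library was 48.5%. For Hsp90aa1 and Hspa1b, both among the 4, this did not hold in FPKM. Hspa1b had 55.1 FPKM in 2KR eWAT against 54.4 FPKM in WT spleen. The median log2 fold change of eWAT over spleen was −0.41 over the members and 0.11 over all genes tested. Among WT libraries alone, the median log2 ratio of eWAT over spleen was −0.19 over the members and −0.17 over those 12307 genes. Among 2KR libraries alone, these medians were −0.60 and −0.26. The 2 libraries of a tissue differ in genotype, which enters the residual spread of this test, and its p-values speak for these 4 libraries, whose spread may be technical.

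Hspe1 fell by 1.39 in eWAT as a log2 fold change (SE 0.21, edgeR adjusted p = 0.000154). Hspd1 fell by 0.79 (SE 0.19, edgeR adjusted p = 0.00432). Hspa1b fell by 0.98 (SE 0.26, edgeR adjusted p = 0.00635). Dnaja1 rose by 0.75 (SE 0.23, edgeR adjusted p = 0.0128). The call of Hspa1b was lost by limma on FPKM (limma adjusted p = 0.0911 to 0.162). The calls of Hspa1b and Hspd1 were lost without the 2KR spleen library (edgeR adjusted p = 0.140 and 0.123), and that of Dnaja1 without the WT spleen library (edgeR adjusted p = 0.446). With Hspa1a and Hspa1b summed, the log2 fold change was −0.83 (edgeR adjusted p = 0.0168).

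The other 6 members did not pass. Hspa1a had a log2 fold change of −0.44 (edgeR adjusted p = 0.213), Hsph1 of −0.50 (0.154), Hsp90aa1 of −0.38 (0.123) and Dnajb1 of −0.30 (0.320). Hsp90ab1 had −0.20 (edgeR adjusted p = 0.591) and Hspa8 −0.0026 (0.994), whose sign turned in 7 of 13 alternatives. Without the 2KR eWAT library, Hspa1a and Dnajb1 passed as lower in WT eWAT than in the spleen libraries (edgeR adjusted p = 3.20e-05 and 0.00111).

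Within each genotype the eWAT over spleen ratio was taken from 1 library a side, so it has a counting interval and no test. Among 2KR libraries, Hspe1, Hsph1 and Hspd1 had log2 ratios of −1.58, −1.35 and −1.02, 3 members at −1 or less against 14.3% of genes. These ratios depended on the scaling: under total counts, where the median of all genes was 0.016 in place of −0.26, Hspd1 had −0.75 and 2 members were at −1 or less, and with DESeq2 size factors (median −0.44) 4 were, Hspa1b among them. Among WT libraries, Hspe1 had −1.22, the only member at −1 or less (11.9% of genes), and Dnaja1 had 1.11, the only one at 1 or more (20.7% of genes). In 2KR libraries no member was at 1 or more (23.1% of genes), and Dnaja1 had 0.46. The counting interval lay below 0 for 9 members in 2KR libraries (52.4% of genes) and for 6 in WT libraries (48.6% of genes). It lay above 0 for 1 member in 2KR libraries (33.3% of genes) and for 4 in WT libraries (34.6% of genes). Hsph1 showed the widest contrast, with a log2 ratio of −1.35 in 2KR (95% exact interval −1.47 to −1.23) and 0.38 in WT (0.27 to 0.49).

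**Figure D2:**
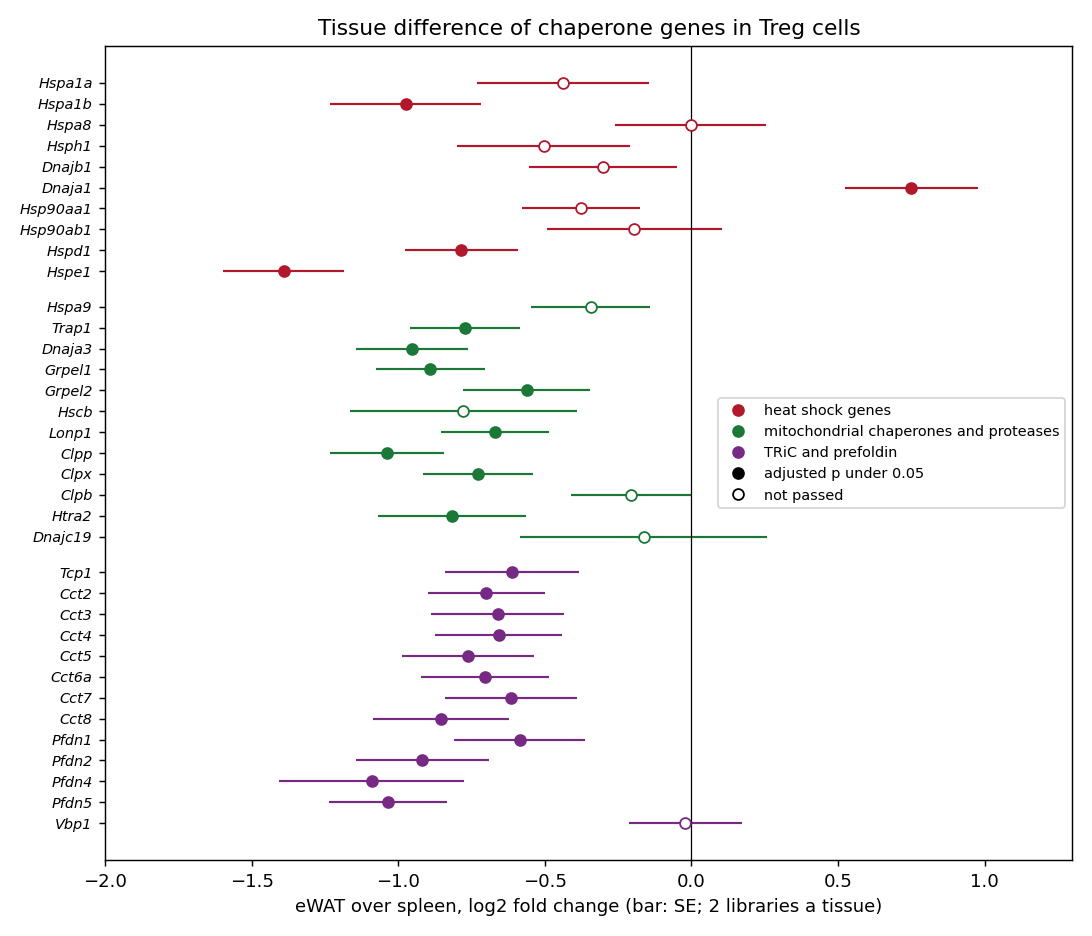
Log2 fold change of eWAT over spleen with its SE (2 libraries a tissue) for the 10 heat shock genes, the mitochondrial chaperones and proteases, and the cytosolic chaperonin TRiC with prefoldin, where filled points have an edgeR adjusted p under 0.05. Hspd1 at −0.79 lies within the range of the mitochondrial genes and Hspe1 at −1.39 lies below all 12 of them, Dnaja1 at 0.75 is the only point right of 0 that passed, and 12 of 13 TRiC and prefoldin genes are filled on the left.

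The second comparison set PPARg-2KR against WT, separately in each tissue, with 1 library a side and no test. In spleen, the 2KR library was higher for 9 of 10 members with a counting interval above 0, against 18.4% of the 12307 genes, or 24.6% of the 7685 genes with a mean of 20 CPM or more. The members' median log2 ratio was 0.53 and that of all genes −0.07. No spleen interval of a member lay below 0 (30.0% of genes), no member reached a log2 ratio of 1 (1.01% of genes) and none −1 (5.71% of genes). Hsph1 had the highest ratio, 0.95 (95% exact interval 0.85 to 1.04). It was followed by Hspa1b at 0.68 (0.58 to 0.78), Dnaja1 at 0.66 (0.56 to 0.76), Dnajb1 at 0.59 (0.53 to 0.65) and Hspa1a at 0.57 (0.39 to 0.76), and these 4 intervals overlap. Hspa8 had 0.49 (0.44 to 0.53), Hsp90aa1 0.31 (0.23 to 0.39), Hspd1 0.26 (0.17 to 0.36) and Hsp90ab1 0.20 (0.18 to 0.22). Hspe1 had −0.0015 (−0.14 to 0.13) and differed from its neighbour Hspd1. These intervals and the 3-read limits hold counting error alone: PCR copies of 1 molecule may be read more than once, and no spread between mice enters.

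In eWAT the members divided. Hspa1a had a log2 ratio of 0.9996 (0.76 to 1.26), just under the threshold of 1, Hspa1b had 0.69 (0.54 to 0.86) and Dnajb1 0.48 (0.40 to 0.55). These were the 3 members with an interval above 0, against 25.2% of genes, or 16.1% of genes with a mean of 20 CPM or more. Dnaja1 had 0.0095 (−0.077 to 0.096). The other 6 had intervals below 0, against 37.5% of genes, or 51.7% of genes with a mean of 20 CPM or more. Among them Hsph1 had −0.78 (−0.92 to −0.66), Hsp90ab1 −0.58 (−0.61 to −0.55), Hspa8 −0.40 (−0.46 to −0.35) and Hspe1 −0.37 (−0.63 to −0.11). Hspd1 had −0.22 (−0.36 to −0.074) and Hsp90aa1 −0.12 (−0.22 to −0.019). No member was at 1 or more (5.35% of genes) or at −1 or less (2.33% of genes). The median was −0.17 over the members and −0.08 over all genes. Scaling by total counts in place of TMM moved the median of all genes in eWAT to 0.18, and the signs of Hsp90aa1 and Hspd1 turned to 0.13 and 0.039, while Hsph1, Hsp90ab1, Hspa8 and Hspe1 stayed below 0 and Hspa1a, Hspa1b and Dnajb1 above 0 under each scaling and on the FPKM scale.

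Side by side, 3 members had both intervals above 0 (Hspa1a, Hspa1b and Dnajb1), against 4.47% of genes, or 5.44% of genes with a mean of 20 CPM or more. An interval below 0 in eWAT and above 0 in spleen was found for 5 of 10 members (Hspa8, Hsp90aa1, Hsp90ab1, Hsph1 and Hspd1), against 7.29% of genes, or 11.1% of those with a mean of 20 CPM or more. None had the opposite pattern (6.54% of genes) or both intervals below 0 (13.7% of genes). The eWAT log2 ratio minus the spleen log2 ratio was −1.73 for Hsph1, −0.89 for Hspa8, −0.78 for Hsp90ab1 and −0.65 for Dnaja1. It was −0.48 for Hspd1, −0.43 for Hsp90aa1, −0.37 for Hspe1, −0.11 for Dnajb1, 0.019 for Hspa1b and 0.43 for Hspa1a. With 1 library a group these differences have no test.

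**Figure D3:**
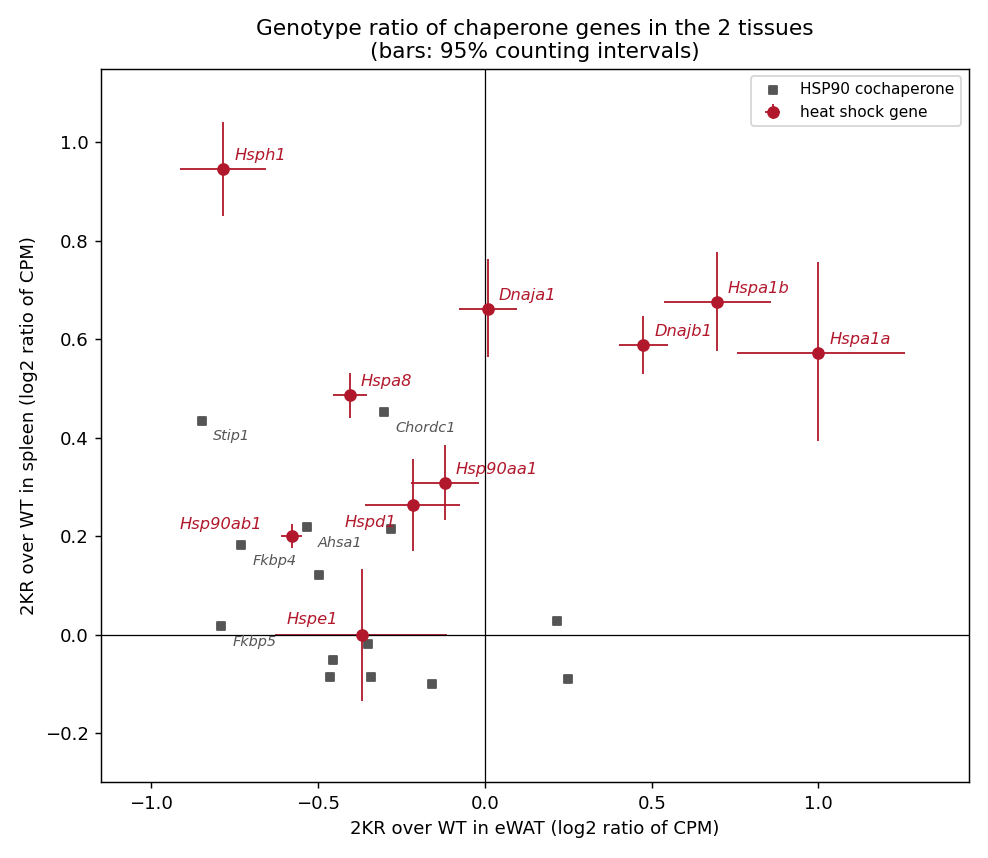
Log2 ratio of 2KR over WT in eWAT (x axis) against that in spleen (y axis) for the 10 heat shock genes, with 95% exact counting intervals as bars, and for 14 HSP90 cochaperones as grey squares without bars, 1 library a group. Hspa1a, Hspa1b and Dnajb1 lie right of and above 0, Hsph1 lies at −0.78 and 0.95, and 12 of the 14 cochaperones lie left of 0.

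A shift by genotype shared by eWAT and spleen was tested in a model that also held tissue, which left 1 residual degree of freedom. The spread in this test is the departure from the same genotype effect in both tissues. With 1 library a group, its SE and p-values measure no spread between mice. Hspa1a passed, with a log2 fold change of 0.78 for 2KR over WT (SE 0.20, edgeR adjusted p = 0.0371) and higher in the 2KR library of 2 of 2 tissues. It was the 1 of 10 members called, against 0.108% of 18442 genes higher and 0.287% lower, and no member was called lower. Hspa1b had 0.69 (SE 0.19, edgeR adjusted p = 0.0896) and Dnajb1 0.53 (SE 0.23, edgeR adjusted p = 0.778), and the other 7 lay between −0.19 for Hsp90ab1 and 0.34 for Dnaja1. The call of Hspa1a held under scaling by total counts and was lost under the other 6 tested alternatives, with adjusted p between 0.0580 and 0.9999, and Hspa1a and Hspa1b summed did not pass (0.72, edgeR adjusted p = 0.0756). DESeq2 called 0 members (0 genes higher, 2 lower), with 3 members and 169 genes at an unadjusted p under 0.05. In edgeR 3 members and 920 genes were under it.

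The other genes of the heat shock pathway were described by list, for eWAT over spleen by the same test. Of 4 heat shock factor genes, 2 fell: Hsf1, the main activator, by 0.57 (edgeR adjusted p = 0.0176) and Hsbp1, a small protein that binds HSF1, by 0.90 (edgeR adjusted p = 0.00219). Hsf1 stood at 65.3 and 73.4 CPM in 2KR eWAT and WT eWAT, against 103 CPM in each spleen library. The 2 became 1 without either spleen library. Of 8 other HSP70 and HSP110 genes, 4 rose and none fell. Hspa2 stood at 41.8 and 63.7 CPM in 2KR eWAT and WT eWAT and at 11.3 and 10.5 CPM in 2KR spleen and WT spleen (log2 fold change 2.28, edgeR adjusted p = 1.06e-05). Hspa12b had 60 and 32 reads in 2KR eWAT and WT eWAT against 2 and 2 in the spleen libraries, Hspa1l had 13 and 10 reads against 3 and 1, and Hspa13 rose by 1.04. Of 15 other J-domain genes, Dnajb14 rose, by 0.80, and Dnajc2, Dnajc7 and Dnajc9 fell, by 0.91, 0.81 and 0.69. Without either spleen library 0 of the 15 passed as higher and 1 as lower, and without WT eWAT 7 passed as lower. Of 8 exchange factors and adaptors of HSP70, 3 fell: Hspbp1 by 0.80, Bag5 by 0.69 and Stub1, the ubiquitin ligase CHIP, by 0.65. The 3 became 0 without WT spleen and 6 without WT eWAT. Of 6 small heat shock protein genes only 3 were tested, and Cryab rose by 2.86 from low counts of 22 and 39 reads in 2KR eWAT and WT eWAT against 6 and 5 in the spleen libraries. None of this list passed without WT eWAT.

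HSP90 cochaperones, of which Stip1 links HSP70 to HSP90, were lower in 2KR eWAT than in WT eWAT for most genes of the list. In the 2KR over WT ratio of eWAT, 12 of 14 were below 0, with a median of −0.40 against −0.08 over all genes. Under scaling by total counts 11 of 14 were (median −0.15). Of all genes with a mean of 20 CPM or more, 51.7% had an eWAT interval below 0. An interval below 0 is a stricter measure than a ratio below 0, so this share cannot be set directly against the list counts. By sign of the ratio, other lists were also mostly below 0, with 12 of 12 mitochondrial genes and 11 of 13 TRiC and prefoldin genes. So were 11 of 15 other J-domain genes and 9 of 12 endoplasmic reticulum chaperones. Under scaling by total counts these lists had 3, 6, 4 and 4 genes below 0. Stip1 stood at 154 CPM in 2KR eWAT and 277 CPM in WT eWAT (log2 ratio −0.85), and at 334 CPM in 2KR spleen and 247 CPM in WT spleen (0.43). Fkbp5, an immunophilin, had −0.79 in eWAT and 0.017 in spleen. Fkbp4 had −0.73 and 0.18, Ahsa1, which activates the HSP90 ATPase, −0.53 and 0.22, and Chordc1 −0.30 and 0.45. In spleen 8 of 14 were above 0, with a median of 0.022. Between tissues 4 of the 14 fell in eWAT (Ppid by 1.19, Cdc37 by 0.64, Ttc4 by 0.54 and Ppp5c by 0.51) and none rose, against 23.2% of genes that fell. The 4 became 1 without either spleen library, 11 without WT eWAT, and 2 under scaling by total counts, and 1 gene passed as higher without 2KR eWAT.

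The chaperonins and the chaperones of mitochondria and endoplasmic reticulum were taken next. Of 13 genes of TRiC, the cytosolic chaperonin, and of prefoldin, its delivery complex, 12 fell in eWAT and none rose (23.2% of genes fell), with a median of −0.70, and under scaling by total counts 11 fell. This count rested on the spleen libraries: without WT spleen 1 of the 13 passed as lower (median −0.74), and without 2KR spleen 3 (median −0.76), where all genes that fell numbered 1909 and 2178 in place of 3833. Vbp1 was the exception (−0.021, edgeR adjusted p = 0.932). Pfdn4, Pfdn5 and Pfdn2 fell by 1.09, 1.04 and 0.92, and Tcp1 by 0.61. Of 12 other mitochondrial chaperones and proteases, 8 fell and none rose, with a median of −0.75, beside −0.79 for Hspd1 and −1.39 for Hspe1. Of these 12, 4 passed as lower without WT spleen and 5 without 2KR spleen. Clpp fell by 1.04, Dnaja3 by 0.95 and Grpel1 by 0.89. In the endoplasmic reticulum, 1 of 12 chaperone genes passed, Dnajb9, which rose by 1.14, and Hspa5, the HSP70 of that compartment, had 0.37 (edgeR adjusted p = 0.268). Without WT eWAT 5 of these 12 passed as lower, and under scaling by total counts 3 passed as higher. The difference between these lists was not tested.

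Further lists of stress genes were set beside the members. Of 12 other proteotoxic stress genes, 5 rose in eWAT (Serpinh1, Ppp1r15a, Atf4, Sqstm1 and Nfe2l2) and 3 fell (Hmox1, Vcp and Ubqln1). Ppp1r15a rose by 1.38, and Hmox1 fell by 1.29. Without either spleen library 1 of the 12 passed as higher and 1 as lower. Of 15 immediate early genes, which respond within minutes to stimulation, 12 rose in eWAT and 2 fell (Jun and Klf2). The 12 became 4 without WT spleen and 5 without 2KR spleen, and the list's median log2 fold change, 1.32, became 0.48 without WT eWAT. Without 2KR spleen 1 gene passed as lower. Atf3 stood at 257 and 1174 CPM in 2KR eWAT and WT eWAT and at 1.18 and 0.968 CPM in 2KR spleen and WT spleen. Fosb rose by 6.18, Ier3 by 5.60 and Nr4a1 by 3.46. All 15 were lower in 2KR eWAT than in WT eWAT, under each scaling used, with a median log2 ratio of −1.23, whereas Hspa1a, Hspa1b and Dnajb1 were higher there. In spleen the median of the 15 was 0.08. Their part in the chaperone ratios was not tested.

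Among 4811 genes with a mean of 50 CPM or more, the 5 whose pattern lay nearest to that of Hspa1a were Il6st, Frmd6, Filip1l, Zfp12 and Fnbp4. The measure was the Euclidean distance over the 4 centred log2 CPM values, 1 per library. It was 0.246, 0.257, 0.269, 0.276 and 0.339. Dnajb1 lay at 0.411 and Hspa1b at 0.536 from Hspa1a. Il6st, the signalling receptor of IL-6 family cytokines, stood at 291 CPM in 2KR eWAT and 149 CPM in WT eWAT, and at 326 CPM in 2KR spleen and 279 CPM in WT spleen.

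Of the members that share sequence with other genes, all but Hsp90ab1 were counted short, below the median gene. Whether the shared sequence accounts for this was not tested. The deposited counts were set against the reads that the FPKM values imply, which for 7579 genes at 5 FPKM or more came to a median of 94.4 to 95.1% counted per library with 1 gene in 10 under 70.0 to 70.6%. Hspa8 had 23.4% counted on average, Hspa1a 36.2%, Dnaja1 45.5% and Hsp90aa1 46.4%, and Hspa1b had 59.3 to 60.8% over the libraries. Hspd1 and Hspe1 had 69.8% and 76.3%, and Dnajb1, Hsph1 and Hsp90ab1 had 93.4%, 96.7% and 101%. Sequence shared with other genes was measured in transcripts of the GENCODE M21 annotation as the share of 100-base windows, the read length, found elsewhere within 4 mismatches. The share was 80.3% for Hspa8, all with pseudogenes, 74.6% for Hspa1b and 70.3% for Hspa1a, which match each other, and 69.8% for Hspd1. It was 67.7% for Hsp90aa1, 61.6% for Hspe1, 19.8% for Dnaja1, 14.3% for Hsp90ab1, and 0% for Dnajb1 and Hsph1. Hspa1a was counted at 42.8% and 36.8% in 2KR eWAT and WT eWAT, against 32.1% and 32.9% in 2KR spleen and WT spleen, the widest spread between libraries of any member. For Hspa8 the share varied only from 22.7 to 24.1%. On the FPKM scale the 2KR over WT log2 ratios were 1.001 in eWAT and 0.62 in spleen for Hspa1a, and −0.13 and 0.53 for Hspa8.

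**Figure D4:**
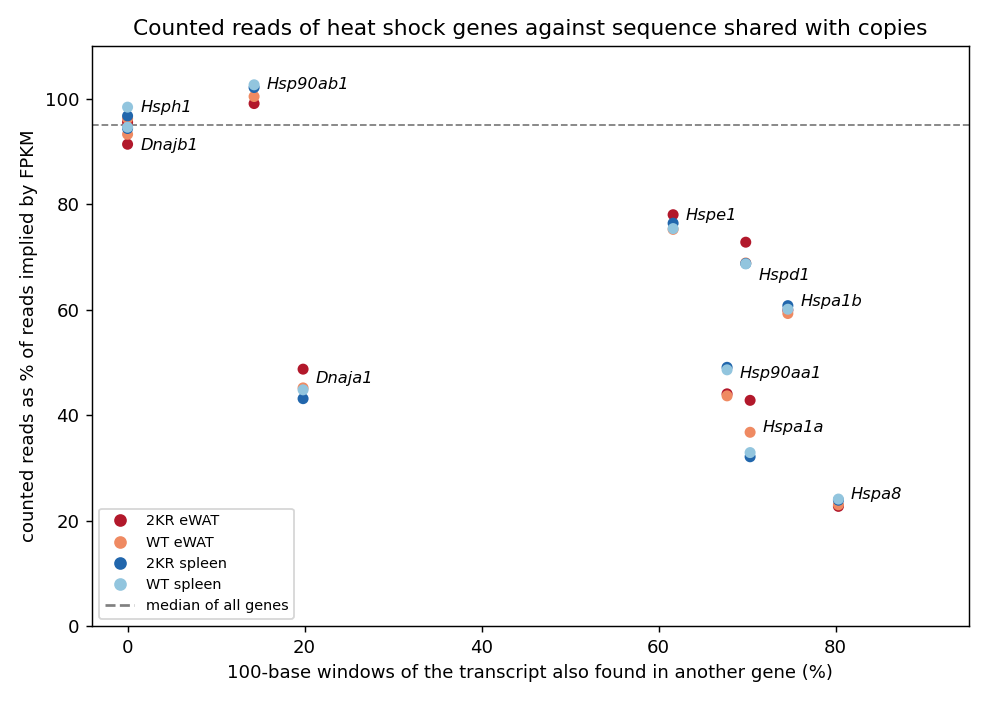
Counted reads as a percentage of the reads implied by FPKM (y axis) against the percentage of 100-base windows of the transcript also found in another gene within 4 mismatches (x axis), 1 point for each of the 4 libraries and each heat shock gene, with the median of all genes as a dashed line. Dnajb1, Hsph1 and Hsp90ab1 lie near the line, Hspa8 lies lowest at 22.7 to 24.1%, and Dnaja1 is at 45.5% on average with only 19.8% of windows shared.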

How the data were processed

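RNA was measured in 4 libraries of sorted Treg cells, 1 per tissue and genotype, grouped by their labels. The deposited counts are unscaled whole numbers for each symbol. Per the deposited readme, the facility read poly-A selected libraries at 100 bases, used bcl2fastq 1.8.4, and mapped reads to mm9 by TopHat 2.1.0 (up to 4 mismatches and 10 multiple hits). FPKM was computed by the authors in Cufflinks 2.0.2. Which tool counted the reads, with which strand setting, and what became of multiple hits is not given in the sources used here. The submitters' processing notes also name mm8.

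Tests used R 4.3.3 with edgeR 4.0.16, TMM scaling and its expression filter, on 16488 genes (tissue, coefficient of variation 0.221) and 18442 genes (genotype, 0.246). Single libraries were compared by log2 CPM ratios (prior count 2) for genes reaching 5 CPM, each with a 95% exact conditional binomial interval. Alternatives used DESeq2 1.42.0, limma 3.58.1 on log2(FPKM + 1) or log2(FPKM + 0.1), other scalings, no filter, and each library left out. Other steps used Python 3.11.15. The edgeR step was tested on simulated data. Sequences are from RefSeq (GRCm38.p6) and coordinates of genes are from the files (mm9).

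The members and lists were chosen with earlier results of these data known. Named genes are the members, up to 3 genes per list by tissue fold change (4 for immediate early genes), up to 2 by ratio in eWAT, and the 5 nearest to Hspa1a. Hspa13, Dnajc9, Ppp5c, Fkbp4, Ahsa1, Chordc1, Vbp1, Atf4, Sqstm1, Nfe2l2, Vcp, Ubqln1, Jun, Klf2, Foxp3 and the markers at 0 reads were named after their values were seen. The 2 listed symbols, Pfdn6 and Adgre1, were not used here.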

Additional observations from a re-analysis of the deposited data

Results flagged for a closer look

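The 2KR over WT log2 ratio had opposite signs in eWAT and spleen for 5 heat shock genes, with 1 library a group, so the difference was not tested. It was −0.78 in eWAT and 0.95 in spleen for Hsph1, −0.40 and 0.49 for Hspa8, −0.58 and 0.20 for Hsp90ab1, −0.22 and 0.26 for Hspd1, and −0.12 and 0.31 for Hsp90aa1. Under scaling by total counts the eWAT ratios of Hspd1 and Hsp90aa1 were 0.039 and 0.13, and that of Hsp90aa1 was 0.12 on FPKM, so their signs in eWAT depended on the scaling.

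The eWAT over spleen log2 ratio had opposite signs in 2KR and WT mice for 3 of them, from the same 4 libraries and also not tested. It was −1.35 in 2KR and 0.38 in WT for Hsph1, −0.44 and 0.45 for Hspa8, and −0.61 and 0.17 for Hsp90ab1. With 1 library a group no spread between mice was available to set these ratios against.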

How the results depend on the processing

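Of 128 alternative values of the tissue effect over the 10 members, 105 kept their direction and their side of the threshold, and Hspe1 did so in all 13 (adjusted p at most 0.00690). In 7 alternatives a sign turned, all for Hspa8, in 7 a call was lost (Hspa1b 4, Dnaja1 2, Hspd1 1) and in 9 one was gained (Hsph1 3, Hspa1a 2, Hsp90aa1 2, Dnajb1 1, Hsp90ab1 1). Hspa8 turned to 0.15 under scaling by total counts, 0.24 by limma on FPKM under both pseudocounts and without a filter, 0.0037 with genotype as a term, and ranged from −0.33 to 0.21 with a library left out. Hspa1b did not pass by limma (adjusted p = 0.0911 to 0.162), and Hsph1 passed with no filter on low counts (edgeR adjusted p = 0.0403). Over all genes, edgeR called 5555 higher and 3833 lower in eWAT. Limma called 2693 (log2(FPKM + 1)), 2676 (log2(FPKM + 0.1)) and 3158 (no filter) higher, and 2353 lower with no filter, where 0 members were higher. With 1 library left out, all genes higher numbered 3402 to 5491, all genes lower 1909 to 5278, members higher 0 to 1 and members lower 1 to 6; a lone library is then assumed to vary like the others.

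For the common genotype effect, where 20 genes were higher and 53 lower, the counts were 8 and 22 with DESeq2 size factors, 67 higher under total counts, 0 and 2 by DESeq2, 2 and 3 by limma with either pseudocount, and 5 and 6 with no filter. Members higher were 3 under total counts (Hspa1a, Hspa1b and Dnajb1) and 0 with DESeq2 size factors, no filter, DESeq2 or limma. With a library left out, the effect equals the ratio of the other tissue, and ranged over −0.40 to 0.49 for Hspa8, −0.12 to 0.31 for Hsp90aa1, −0.78 to 0.95 for Hsph1, −0.22 to 0.26 for Hspd1 and −0.58 to 0.20 for Hsp90ab1. The single-library ratios turned in eWAT for Dnaja1 (−0.024, DESeq2 size factors), Hsp90aa1 (0.13 total counts, 0.12 FPKM) and Hspd1 (0.039, total counts), in spleen for Hspe1 (0.060 DESeq2 size factors, 0.028 total counts, 0.0084 FPKM), and in WT for Hsp90aa1 (0.050, FPKM). Members at 2-fold or more in the eWAT genotype ratio were 1 (Hspa1a) under total counts, a prior count of 0.5 and FPKM. That count was 1 in spleen with DESeq2 size factors, which also gave 2 members in place of 1 at −1 or less in the WT tissue ratio. Of 58 alternative values of the 2KR tissue ratio, 36 moved beyond their counting interval and none turned, with Hspa8 at −0.093 and Hsp90aa1 at −0.15 on FPKM. The median of this ratio over all genes moved too, from −0.26 to 0.016 under total counts and −0.44 with DESeq2 size factors. On log2(FPKM + 1) it was −0.026. Why the scalings differed was not tested. With genotype as a term in the tissue fit, 1 member rose and 4 fell, with 4487 genes higher and 4008 lower. No paired analysis was possible because each group has 1 library, so replicate numbers mark no pairs.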
